A study of Mus musculus with 4 samples.

Results

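The miR-29 family was followed in small RNA libraries of the mouse main olfactory epithelium, the lining of the nasal cavity in which the neurons that detect odours sit among supporting and basal cells. The family comprises the 7 rows of the deposited table that carry the name miR-29a, miR-29b or miR-29c, both arms and the locus-numbered 5p arms included, out of 1167 rows in all. The AC3-/- group consisted of 2 libraries from mice that lack adenylyl cyclase 3, which produces the cAMP signal of an olfactory sensory neuron once its odour receptor has bound a ligand. The wild-type group consisted of 2 libraries. All 4 came from C57BL/6 males 3 months of age. How the AC3 allele was made is not given in the sources used here, and nothing in the labels says whether each library had its own mouse, so the p-values reflect no more than how these libraries vary, which may be technical.

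A miRNA is cut from a hairpin precursor whose 2 arms give a 5p and a 3p product. One product is usually kept by Argonaute as the guide that pairs with mRNAs through its seed, bases 2 to 8, while the other is mostly degraded. The 3p arms of miR-29 are the guides. They are known for repressing collagens, elastin and other extracellular matrix mRNAs in fibroblasts, and de novo DNA methyltransferases in human cells, and they are known to accumulate as neurons of the mouse brain mature.

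All 7 members were found among the RefSeq mature miRNAs of GRCm38.p6. The mature sequences are shown because shared and distinct seeds divide the family. Each is written 5′ to 3′ with the seed in capitals, first the 3 guides and then the 4 products of the 5p arms, and mmu marks the mouse.
mmu-miR-29a-3p: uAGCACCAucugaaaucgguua
mmu-miR-29b-3p: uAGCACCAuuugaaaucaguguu
mmu-miR-29c-3p: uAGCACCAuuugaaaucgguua
mmu-miR-29a-5p: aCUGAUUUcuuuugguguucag
mmu-miR-29b-1-5p: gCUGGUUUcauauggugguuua
mmu-miR-29b-2-5p: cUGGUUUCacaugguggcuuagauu
mmu-miR-29c-5p: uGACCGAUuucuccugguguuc

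The 3 guides share the seed AGCACCA, which no other of the 1679 distinct mature miRNAs in the RefSeq set holds. The 4 products of the 5p arms have 4 different seeds. Those of miR-29b-1-5p and miR-29b-2-5p are the same stretch read 1 base apart, since the annotated miR-29b-2-5p starts 1 base further into it. miR-6338 has the seed of miR-29b-2-5p and is not analysed here. Counted from 1 at the 5′ end, miR-29a-3p and miR-29c-3p differ by C10U alone. miR-29c-3p and miR-29b-3p share their first 17 bases and differ by G18A, U21G and A22U, and miR-29b-3p is 1 base longer. The authors' rule for mismatched or shortened reads is not given in the sources used here, so a read cut short or misread at these bases could have been counted for another member. miR-29b-3p ends in AGUGUU, the letters that in human cells are known to direct miR-29b to the nucleus. Searched on the miRNA strand, AGUGUU occurs in 12 of the 1679 mature miRNAs (0.715%), ends 2 of them (0.119%), and is absent from the other members.

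The family has 4 genes in 2 pairs. Mir29a and Mir29b-1 are minus-strand genes of chromosome 6, at chr6:31062660-31062747 and chr6:31063023-31063093, with 275 bases between them. Neither overlaps an exon of a protein-coding gene, and the first 2 bases of Mir29b-1 overlap an exon of the long noncoding RNA Gm27019. Mir29b-2 and Mir29c lie on the plus strand of chromosome 1, at chr1:195037040-195037120 and chr1:195037547-195037634, with 426 bases between them. Both are within an exon of the noncoding transcript A330023F24Rik, and opposite the UTR of Cd46 on the other strand (GENCODE M21, GRCm38). miR-29b-3p is made from both pairs and does not tell them apart, whereas the 5p arms do. The hairpins of Mir29a and Mir29c are shown because their arms were recovered in very different proportions. Both mature arms are in capitals, and 16 bases separate them in each.
Mir29a: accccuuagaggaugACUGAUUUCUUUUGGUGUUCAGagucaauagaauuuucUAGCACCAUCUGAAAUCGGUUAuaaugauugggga
Mir29c: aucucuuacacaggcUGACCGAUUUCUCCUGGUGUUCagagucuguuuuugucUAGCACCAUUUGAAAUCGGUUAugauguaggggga

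The deposited table gives 1 mean normalised read count per genotype. Whole reads of the single libraries were worked back from these means, because each mean is a sum of whole multiples of 2 fixed amounts, what 1 read is worth in either library. The reads of a genotype's 2 libraries together came to between 19247102 and 20013642 in AC3-/- and between 21184629 and 23076588 in wild type. The libraries are called a and b. Library a is the one with the larger size factor in each genotype (1.15 against 1.10 in AC3-/-, 0.941 against 0.855 in wild type), and neither letter stands for a replicate number. Markers of the labelled tissue were present. The authors' deposited table gives miR-183-5p, made in sensory epithelia, means of 322736 in AC3-/- libraries and 1304447 in wild-type libraries, and miR-200b-3p, an epithelial miRNA, 399796 and 1351262. Neither difference passed the authors' test (adjusted p = 0.940 for each). The scarcer miR-183-3p stood at 399 and 226 in AC3-/- libraries a and b, against 272 and 1410 in those of wild type. miR-200b-5p stood at 3296 and 3307, against 3784 and 11472. In both, wild-type library b was the highest.

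The miR-29 guides were dominated by miR-29a-3p in both genotypes. The authors' deposited table gives miR-29a-3p a mean of 45312 normalised reads in AC3-/- and 51437 in wild type, and it was number 31 of 1167 rows by abundance. miR-29b-3p followed with 5831 in AC3-/- and 4834 in wild type, then miR-29c-3p with 640.1 in AC3-/- and 749 in wild type. miR-29a-3p thus made up 87.5% of the reads of the 3 guides in AC3-/- and 90.2% in wild type, while miR-29c-3p made up 1.24% and 1.31%. miR-29a-3p was read 70.8 times as often as miR-29c-3p in AC3-/- and 68.7 times in wild type, although the sequences differ by 1 base. Ligation and PCR favour some sequences, so such ratios between miRNAs are ratios of reads and not of molecules. The whole family summed to 52701.5 normalised reads in AC3-/- and 57760.4 in wild type. It held 0.603% of the summed means in AC3-/- and 0.469% in wild type. The share is the higher in AC3-/- because the means of all rows sum to less there (8.74e+06 against 1.23e+07).

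The order of the 5p arms was different. miR-29c-5p, from the least abundant guide's precursor, was the highest, at a mean of 701 normalised reads in AC3-/- and 522 in wild type (authors' deposited table). It held 76.4% of the reads of the 4 products of the 5p arms in AC3-/- and 70.5% in wild type. miR-29a-5p stood at 156 in AC3-/- and 128 in wild type, miR-29b-2-5p at 49.5 and 78.2, and miR-29b-1-5p at 10.7 and 12.5. All 7 members passed a mean of 10 normalised reads, the minimum used for the test between libraries.

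No member passed the test between AC3-/- and wild type. Of the 7 members, 0 had an adjusted p under 0.05, against 1 of all 1167 rows (0.0857%), in the authors' deposited table. At an unadjusted p under 0.05 the count was also 0 of 7, against 41 of 1167 (3.51%). The authors' log2 fold changes, AC3-/- over wild type and shrunken toward 0, were above 0 for 3 members and below 0 for 4, from -0.49 for miR-29b-2-5p to 0.32 for miR-29c-5p. Their median was -0.13, beside -0.01 over all rows. The guides did not share a direction, at -0.17 for miR-29a-3p, 0.23 for miR-29b-3p and -0.20 for miR-29c-3p (adjusted p = 0.940 for each in the authors' deposited table, by the authors' test).

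**Figure D1:**
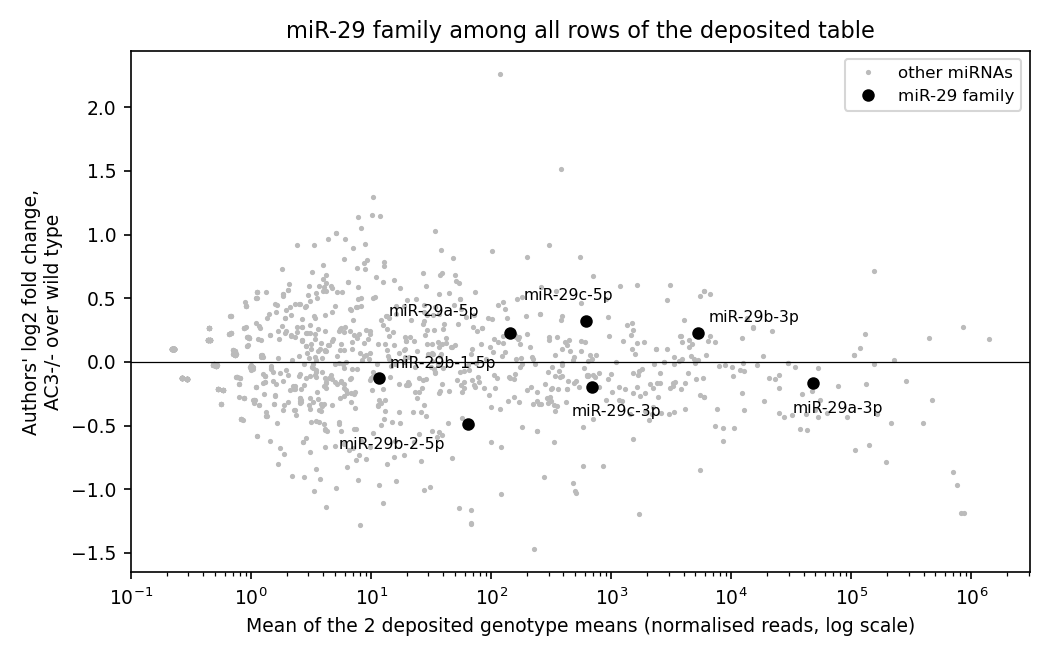
The authors' log2 fold change, with AC3-/- on top (y axis), against the mean of the 2 deposited genotype means in normalised reads (x axis, log scale), with each point 1 miRNA and the 7 miR-29 members in black. The members lie between -0.49 and 0.32, inside the cloud of other miRNAs.

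Values of the single libraries were obtained for 6 members in all 4 libraries. The guide miR-29b-3p had 5148 and 6515 normalised reads in AC3-/- libraries a and b (5909 and 7157 reads), against 3771 and 5896 in those of wild type (3549 and 5042 reads). The lowest value was that of wild-type library a, and wild-type library b lay between the AC3-/- libraries, so the groups overlapped. Averages were 5831 ± 967 in AC3-/- and 4834 ± 1503 in wild type (SD, n = 2 each). limma was fitted on log2(normalised reads + 1) to all miRNAs that average at least 10 normalised reads and could be split into libraries (492 reach that average, and 43 of them had no single solution). It gave a difference of 0.30 (95% interval -0.50 to 1.09, adjusted p = 0.932).

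The guide miR-29c-3p stood at 581 and 699 normalised reads in AC3-/- (667 and 768 reads), against 613 and 885 in wild type (577 and 757 reads). The wild-type pair spanned the higher of the AC3-/- values. The log2 difference in limma was -0.21 (95% interval -1.10 to 0.68, adjusted p = 0.932).

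For the most abundant guide, miR-29a-3p, the wild-type mean had a single solution, 52857 for library a and 50017 for library b in normalised reads (49744 and 42771 reads). The AC3-/- mean had 2. The first gives 46778 and 43847 normalised reads, 1.07-fold apart, and the second 2709 and 87915, 32.4-fold apart. The first is the nearer to the other 6 members, whose library b was 1.20-fold to 1.88-fold library a in AC3-/-. Over all miRNAs in the fit, the log2 ratio of these libraries had a median of 0.01 and an SD of 0.56. The first solution puts both AC3-/- libraries below both wild-type libraries, and the second puts library a below and library b above them. The mean alone does not settle which holds, so miR-29a-3p was left out of the limma fit. Its comparison rests on the authors' deposited table alone.

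Among the 5p arms, miR-29c-5p stood at 487 and 916 normalised reads in AC3-/- (559 and 1006 reads), against 376 and 668 in wild type (354 and 571 reads). Library b was the higher of its pair in each genotype, and the groups overlapped. The log2 difference in limma was 0.41 (95% interval -0.81 to 1.63, adjusted p = 0.932).

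miR-29a-5p showed the same order of libraries, at 129.8 and 183 normalised reads in the AC3-/- pair, against 91.4 and 165 in the wild-type pair. miR-29b-2-5p, from the chromosome 1 pair, had 43.6 and 55.5 in AC3-/-, against 49.9 and 106 in wild type, where library b stood above the other 3. Its log2 difference, -0.56, was the largest in size among the 6 members (95% interval -1.76 to 0.64, adjusted p = 0.932). miR-29b-1-5p, from the chromosome 6 pair, rested on 10 and 14 reads in AC3-/- and 7 and 15 in wild type, or 8.71 and 12.7 against 7.44 and 17.5 normalised reads. At this depth the Poisson 95% intervals of all 4 libraries overlapped. The intervals cover counting error only.

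None of the 6 members in the fit separated the genotypes, and miR-29a-3p was not among them. The AC3-/- and wild-type values overlapped for 6 of 6, while they did not overlap for 151 of the miRNAs in the fit (33.6%). limma called 0 miRNAs (0%) at an adjusted p of 0.05 and gave 16 an unadjusted p under 0.05 (3.56%), with no member among them. Without wild-type library a the same fit called 63 miRNAs and without wild-type library b 2, with no member in either. The intervals above are wide, and a miss does not show that the genotypes were alike. The median log2 ratio over the 6 members was 0.03, and it turned sign with the library left out, at -0.27 without wild-type library a and 0.58 without wild-type library b.

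**Figure D2:**
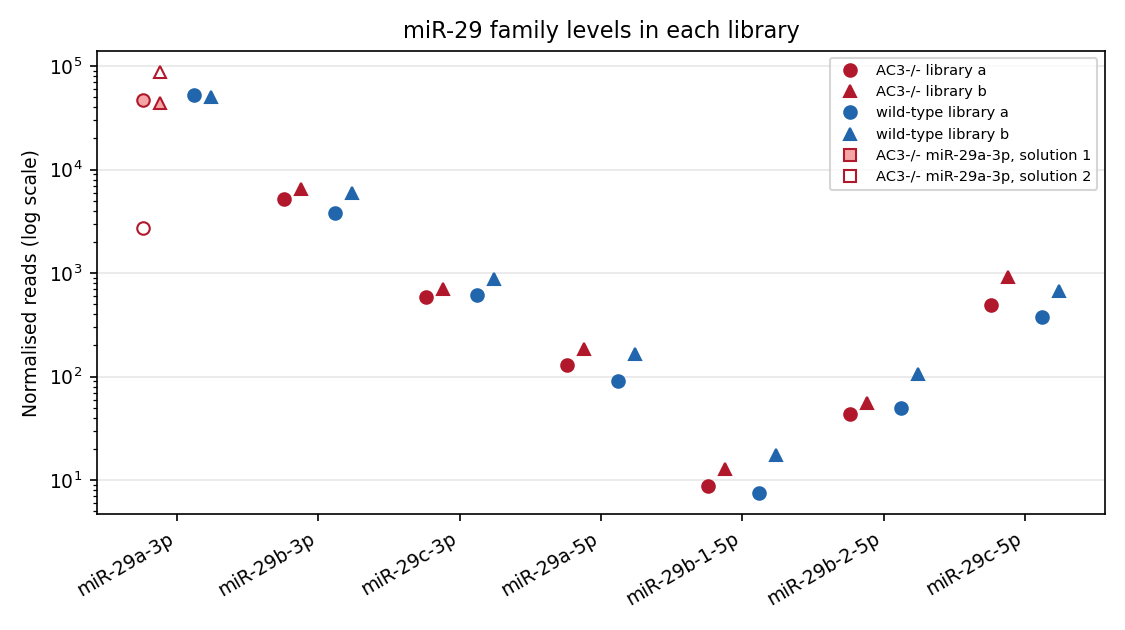
Normalised reads (y axis, log scale) of the 7 members (x axis) in each library, red for AC3-/- and blue for wild type, circles for library a and triangles for library b. Filled pale and open red symbols are the 2 solutions for miR-29a-3p in AC3-/-, and for the other 6 members library b lies above library a in each genotype.

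Apart from miR-29a-3p, the members differed between libraries of the same genotype in a shared direction, though by unequal amounts. All 6 members with values in every library were higher in library b than in library a in AC3-/-, by 1.20-fold to 1.88-fold. All 6 were likewise higher in library b in wild type, by 1.44-fold to 2.36-fold. Of all miRNAs in the fit, library b was the higher for 230 in AC3-/- (51.2%), for 233 in wild type (51.9%) and for 107 in both genotypes (23.8%). The median log2 ratio of library b to library a was 0.42 over the members and 0.01 over all miRNAs in the fit in AC3-/-, and 0.84 over the members and 0.04 over all in wild type. miR-29a-3p, the most abundant guide, did not share this in wild type, where library b held 0.946 times the value of library a. In AC3-/- its first solution has library b lower (46778 in a and 43847 in b) and its second has it higher. Since each pair is 2 libraries, no test of these differences was made. The letters follow the size factors within each genotype, so library b of AC3-/- is not matched to library b of wild type.

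**Figure D3:**
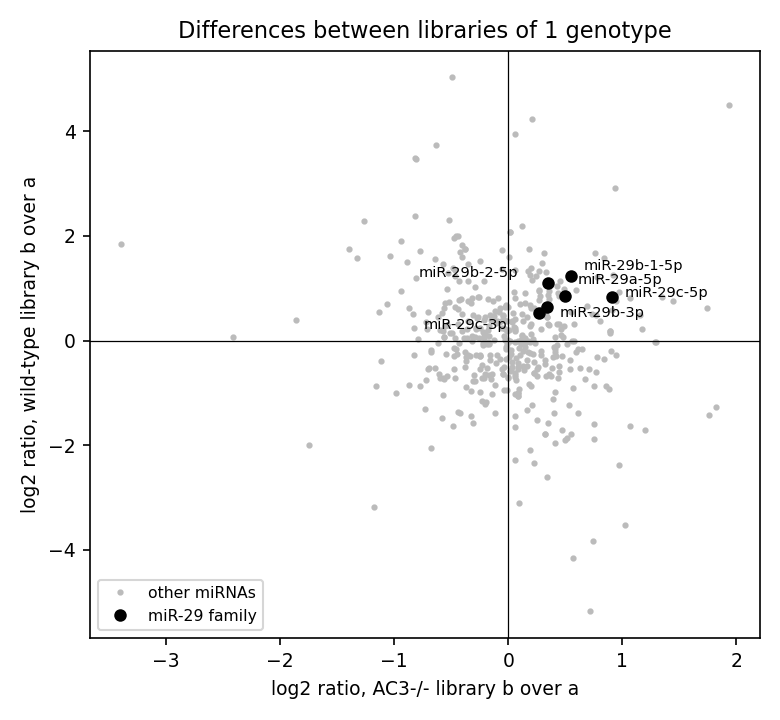
Log2 ratio of library b to library a in wild type (y axis) against the same ratio in AC3-/- (x axis), with each point 1 of the miRNAs with a mean of at least 10 normalised reads and reads in every library. The 6 miR-29 members (black) all lie above 0 on both axes, between 0.27 and 0.91 in AC3-/- and between 0.53 and 1.24 in wild type.

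Markers of cell types and tissues moved between the same libraries. The sums below leave out miRNAs without a single solution. Left out are miR-34c-5p, miR-146a-5p, miR-183-5p, miR-200b-3p, miR-9-5p and miR-199a-3p, each the most abundant of its list. Also left out are the abundant miR-182-5p, miR-96-5p, miR-200a-3p, miR-200c-3p, miR-429-3p and miR-199a-5p. Library values thus cover 3 of 6 sensory-epithelium rows, 6 of 10 epithelial rows and 3 of 5 mesenchymal rows. These sums are therefore not whole marker levels. The summed level of the 8 multiciliated-cell miRNAs with library values (miR-34b, miR-34c and miR-449) was 13869 and 26257 normalised reads in AC3-/- libraries a and b, against 30648 and 5976 in those of wild type. Of 6 with a mean of at least 10, all were higher in library b in AC3-/- and none in wild type, and miR-449b, a scarce member, was at 0 in wild-type library b. The leukocyte list (miR-142a, miR-223, miR-155, miR-150 and miR-146a) behaved alike. Its 9 miRNAs summed to 14264 and 17858 in AC3-/- and to 16851 and 5235 in wild type, with 7 of 7 higher in library b in AC3-/- and 0 of 7 in wild type, and with miR-146a-3p and miR-155-3p at 0 in wild-type library b. The 3 sensory-epithelium miRNAs with library values (the scarcer 3p arms of miR-182, miR-183 and miR-96) went the other way. They summed to 1374 and 659.9 in AC3-/- and 1318 and 6309 in wild type. The epithelial list (miR-200, miR-141 and miR-429) summed to 47932 and 46239.7 in AC3-/- and to 42554 and 99988 in wild type over 6 miRNAs. Of its 5 miRNAs with a mean of at least 10, library b was the higher for 3 in AC3-/- and for 5 in wild type, and the scarce miR-429-5p was at 0 in AC3-/- library b. The striated-muscle list (miR-1a, miR-133 and miR-206) summed to 6561 and 4398 in AC3-/- and to 6621 and 7034 in wild type, with 0 of 4 higher in library b in AC3-/- and 4 of 4 in wild type. Its miR-206-3p was at 0 in AC3-/- library b and its scarce miR-1a-2-5p in AC3-/- library a. The neuronal list (miR-124 and miR-9) summed to 4033 and 3354 in AC3-/- and to 3449 and 6124 in wild type, with 0 of 2 and 2 of 2 higher in library b. These sums are mostly miR-9-3p (mean 4114, authors' log2 fold change -0.37). miR-124-3p stood at 228 and 183 in AC3-/-, against 21.3 and 37.4 in wild type. With an authors' log2 fold change of 2.26, it was the 1 row of 1167 with an adjusted p under 0.05 by the authors' test. The red blood cell list (miR-451a and miR-144) was lower in library b in both genotypes for 3 of 3. The mesenchymal list (miR-199 and miR-214) marks the fibroblasts in which miR-29 is best known. Its 3 miRNAs with library values summed to 8629 and 8981 in AC3-/- and to 9752 and 7727 in wild type. Library b was the higher for 2 of 3 in AC3-/- and for 0 of 3 in wild type. No list was higher in library b in both genotypes for every miRNA counted here. This comparison cannot decide whether the cell types played a part. The miR-29 family also falls short of it once miR-29a-3p is counted, at 0.946 times library a in wild type. Several lists lack their most abundant miRNA, and the letters were given within each genotype by size factor. The part of these cell types in the higher levels of the miR-29 members in library b was not tested. In tissue samples a change in the share of a cell type and a change of level within cells cannot be told apart.

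The proportion of the arms was a second measure, internal to each library and free of the size factors. miR-29c gave nearly as many 5p as 3p reads. Its 5p share was 45.6% and 56.7% in AC3-/- libraries a and b (559 of 1226 and 1006 of 1774 reads), against 38.0% and 43.0% in those of wild type (354 of 931 and 571 of 1328 reads). Both AC3-/- shares lay above both wild-type shares, and in AC3-/- library b the 5p arm outnumbered the guide by 1.31 to 1. Wilson 95% intervals were 42.8% to 48.4% and 54.4% to 59.0% in AC3-/-, and 35.0% to 41.2% and 40.4% to 45.7% in wild type, so the lower AC3-/- value and the higher wild-type value were not separated by counting error. The averages were 51.2% ± 7.86 in AC3-/- and 40.5% ± 3.52 in wild type (SD, n = 2 each). An exact two-sided permutation test gave p = 0.333, the smallest that 2 libraries against 2 allow. The difference between the deposited means was 11.2 percentage points, number 2 in size among the 166 precursors whose arms together averaged at least 100 normalised reads. In percentage points, a share near either end of the scale moves little even for a large relative change. The ranking therefore favours precursors with mixed arms, such as miR-29c. Scarcer precursors were not ranked. Between the averages of the library shares the difference was 10.6 points, and 5.09 points without AC3-/- library b. Among the 135 of these precursors with library values, both AC3-/- shares were the higher in 27 (20.0%), both were the lower in 18 (13.3%), and shares thus did not overlap in 45 (33.3%), so such a separation was common.

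**Figure D4:**
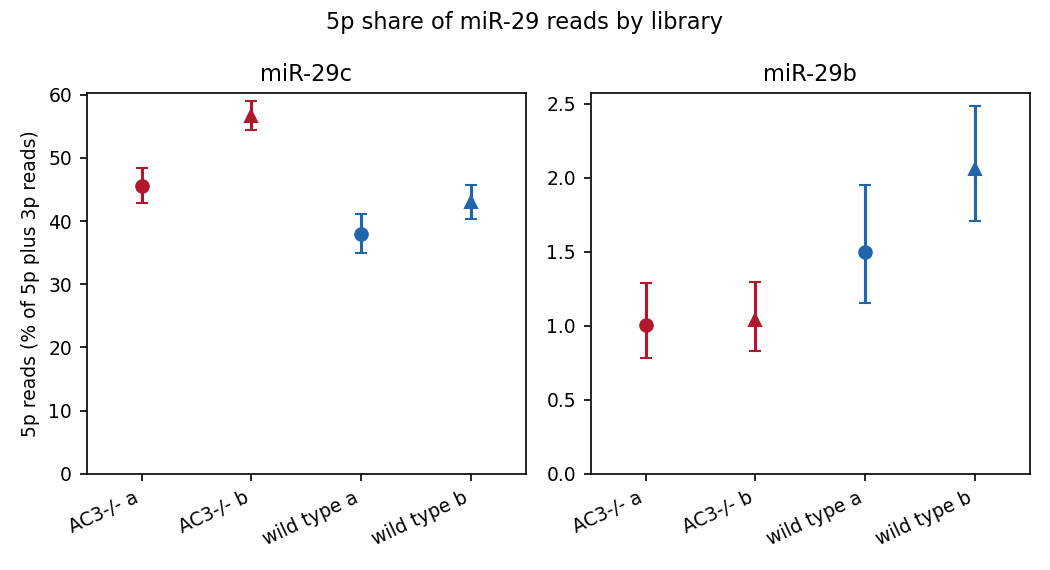
5p reads as a percentage of 5p plus 3p reads (y axis) of miR-29c (left) and miR-29b (right, 2 precursors together) in each library, red for AC3-/- and blue for wild type, with Wilson 95% intervals. Both AC3-/- libraries lie above both wild-type libraries for miR-29c, and below them for miR-29b.

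The other precursors were one-sided. miR-29a-5p made up 0.344% of the miR-29a reads in AC3-/- and 0.248% in wild type. In the wild-type libraries the share was 0.173% and 0.329% (86 of 49830 and 141 of 42912 reads). For miR-29b, whose guide comes from 2 genes, the summed 5p arms made up 1.01% and 1.04% of reads in AC3-/- (60 of 5969 and 75 of 7232 reads), against 1.50% and 2.06% in wild type (54 of 3603 and 106 of 5148 reads). The AC3-/- shares lay below both wild-type shares, the opposite of miR-29c (exact two-sided permutation test, p = 0.333). Both AC3-/- shares were likewise the lower in 18 of the 135 precursors with library values (13.3%). miR-29b, as a sum over 2 precursors, is not among those 135. The Wilson 95% intervals of the nearest libraries overlapped, at 0.828% to 1.30% in AC3-/- library b and 1.15% to 1.95% in wild-type library a. Between the averages of the library shares the difference was -0.76 percentage points, and -0.48 without wild-type library b. A 5p share between 25% and 75% in both genotypes, as in miR-29c, was seen in 28 of the same 166 precursors (16.9%).

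**Figure D5:**
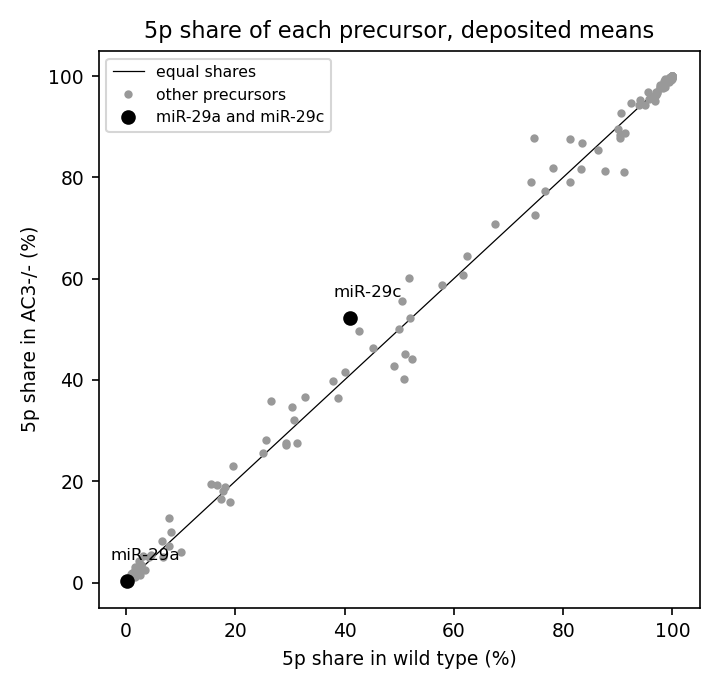
5p share of each of the 166 precursors whose arms together averaged at least 100 normalised reads, in AC3-/- (y axis, %) against wild type (x axis, %), from the deposited means, with the line of equal shares. miR-29c lies above the line at 52.3% in AC3-/- and 41.1% in wild type, with miR-29a at the lower left corner.

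The 5p arms of miR-29b tell its genes apart. miR-29b-2-5p from chromosome 1 made up 83.3% and 81.3% of the miR-29b 5p reads in AC3-/- (50 of 60 and 61 of 75), against 87.0% and 85.8% in wild type (47 of 54 and 91 of 106). The Wilson 95% intervals reached from 71.1% to 90.7% in AC3-/- and from 75.6% to 93.6% in wild type, and overlapped in all 4 libraries. This is a share of 5p reads, and the share of miR-29b-3p that each gene gave was not measured.

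The ratio of the guides miR-29b-3p and miR-29c-3p also separated the libraries by genotype. miR-29b-3p was read 8.86 and 9.32 times as often as miR-29c-3p in AC3-/- libraries a and b, against 6.15 and 6.66 times in those of wild type. The AC3-/- and wild-type values did not overlap and the libraries of a genotype lay close together. This pair was singled out after its values were seen. Ratios with miR-29a-3p, the dominant guide, had no single value for the AC3-/- libraries. From the deposited means, its ratio to miR-29c-3p was 70.8 in AC3-/- and 68.7 in wild type. That to miR-29b-3p was 7.77 and 10.6. Of all 100576 pairs among the miRNAs in the fit, 32842 had ratios that did not overlap between the genotypes (32.7%).

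Some miRNAs outside the family followed the members closely over the 4 libraries. Likeness was measured as the Euclidean distance between log2 profiles, each centred on its mean, among the 253 miRNAs whose mean reached 100 normalised reads. Outside the family, miR-29b-3p lay nearest to miR-3102-3p (0.12), miR-532-3p (0.17) and miR-345-5p (0.19). Its distance was 0.18 to miR-29a-5p, 0.44 to miR-29c-5p and 0.51 to miR-29c-3p. miR-29a-5p lay nearest to miR-877-5p (0.15), miR-3102-3p (0.15) and miR-345-5p (0.23). miR-29c-3p lay nearest to miR-339-3p (0.07), miR-674-3p (0.14) and miR-1981-5p (0.20). miR-29c-5p lay nearest to miR-345-5p (0.32), miR-877-5p (0.34) and miR-574-3p (0.39), with the member miR-29a-5p nearer still at 0.31. The arms of the miR-29c precursor were 0.80 apart, with miR-29c-3p number 34 by distance from miR-29c-5p. Counted from miR-29c-3p, the members lay further down, with miR-29b-3p number 68, miR-29a-5p number 91 and miR-29c-5p number 142. With 4 libraries these distances describe the profiles and no more.

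Set beside other broadly made families, miR-29 was mixed in direction, though let-7 was counted on its guide strands only. The guide strands of let-7, a family that accumulates as cells differentiate, had authors' log2 fold changes below 0 in 11 of 11 rows, with a median of -0.19. The let-7 3p arms, outside that count, went both ways, among them 0.37 for let-7g-3p and -0.30 for let-7a-1-3p. The miR-30 family, made in many epithelia and counted over both arms, had 11 of 12 rows below 0 and a median of -0.30. Over both arms, the miR-29 family had 4 of 7 below 0 and a median of -0.13, where 589 of all 1167 rows (50.5%) were below 0. The miR-29 guides alone stood at -0.17, 0.23 and -0.20. No member of the 3 families passed the adjusted p of 0.05 in the authors' deposited table. Scaled to each genotype's total in place of the size factors, all log2 ratios move up by 0.50, because the means sum to less in AC3-/-. On that scale the miR-29 median was 0.31 and the median of all rows 0.44, the same gap as between the unscaled ratios, since the shift is equal for every row. The direction against all rows depended on the minimum level. Over the 5 members with a mean of at least 100 the median of the authors' log2 fold changes was 0.23, beside -0.09 over all such rows.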

How the data were processed

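The sequencing libraries came from Trizol-extracted RNA, by ligation of adaptors, PCR and selection by length on a gel, per the labels' protocols, which mention no molecular identifiers, so reads can be copies of 1 molecule. Per the submitters' processing notes the tools were Bowtie and DESeq 1.8.3 with GRCm38; how reads were counted and filtered, and the miRBase release, is not given in the sources used here. For each genotype the authors deposited a signal (mean normalised read count), and for the comparison a shrunken log2 fold change, a p-value and an adjusted p-value, which equals a Benjamini-Hochberg adjustment over all 1167 rows.

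From these, whole reads per library were worked back. 1 solution was found for 1125 rows in AC3-/- (96.4%) and 1134 in wild type (97.2%), and the procedure was tested on simulated tables. limma 3.58.1 (R 4.3.3, intensity trend) with Benjamini-Hochberg adjustment was fitted to log2(normalised reads + 1) of such miRNAs averaging at least 10 over the 2 columns, a pseudocount that understates changes of low miRNAs. Sequences are from RefSeq (GRCm38.p6) and overlaps from GENCODE M21. The genotype was not checked, since small RNA libraries do not measure the Adcy3 mRNA. All 7 members are named, and of other miRNAs the 3 nearest in profile, the most abundant of each list and any that shares a seed, as far as the comparisons rest on them. Further miRNAs are named where they limit a sum or a count. The members, lists and tests were chosen with earlier results of these data known.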

Additional observations from a re-analysis of the deposited data

How the results depend on the processing

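No member was called under an unadjusted threshold, an adjustment over rows with a mean of at least 10, or limma in any of its settings. Over all miRNAs in the fit limma called 0 in the settings with all 4 libraries and without either AC3-/- library, but 63 without wild-type library a and 2 without wild-type library b (130 and 46 at an unadjusted p under 0.05). No paired analysis was possible because the library letters carry no replicate number. With pseudocounts of 0.5 and 10, minimum means of 1 and 50, no intensity trend and both other scalings, all 41 log2 differences kept their sign, with adjusted p from 0.887 to 0.992. With 1 library left out, when a lone library is assumed to vary like the other genotype's pair, 6 of 24 changed sign. The ranges were -0.026 to 0.62 for miR-29b-3p, -0.47 to 0.056 for miR-29c-3p, -0.097 to 0.75 for miR-29a-5p, -0.68 to 0.45 for miR-29b-1-5p, -1.10 to -0.022 for miR-29b-2-5p and -0.041 to 0.87 for miR-29c-5p. The smallest adjusted p was 0.0734, for miR-29b-2-5p without wild-type library a. The median over members ranged from -0.27 to 0.58. The difference in 5p share ranged from -1.04 to -0.48 percentage points for miR-29b and from 5.09 to 16.2 for miR-29c. The cause was not tested. With all libraries the median lay between -0.18 and 0.31 under the other settings, among them 0.23 over the 5 members with a mean of at least 100 and 0.05 over the 5p arms. The median over the 6 members with library values (0.03) was added after the data were seen. Depth limits miR-29b-1-5p, with 7 to 15 reads a library.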
